A study of Mus musculus with 3 samples.

Results

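The D cyclins and the inhibitors of cyclin-dependent kinases (CDKs) were examined in mouse acute myeloid leukemias that lack the microRNA miR-196b. The genes were taken by symbol: the cyclins Ccnd1, Ccnd2 and Ccnd3, the Cip/Kip inhibitors Cdkn1a, Cdkn1b and Cdkn1c, and the INK4 inhibitors Cdkn2a, Cdkn2b, Cdkn2c and Cdkn2d. Of these 10 genes, 9 had values among the 28074 gene symbols of the expression table, and the level of Cdkn2d was not analysed here. Cdkn1b is included because it is a reported target of miR-196b.

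RNA was sequenced from the spleens of 3 moribund mice, 1 leukemia each, after red cell lysis and magnetic enrichment of cells bearing c-Kit. All 3 mice carried the genotype miR196b-/-Dnmt3afl/fl,Flt3ITD/ITD,Mx1Cre: both copies of miR-196b deleted, floxed Dnmt3a, the internal tandem duplication of the Flt3 receptor on both copies, and the Mx1-Cre recombinase, which is induced by interferon and acts in many blood cells rather than in leukemic cells alone. The titles write the Dnmt3a genotype as +/-, against fl/fl in the genotype field, and the values here do not settle which applies. The mice's ages are not given in the sources used here. The study's own comparison was with Dnmt3a/Flt3-ITD leukemias that keep miR-196b. Those controls are samples of a different series and were left out, so no value below shows an effect of the deletion. The numbers 1, 2 and 3 follow the sample records and only name a mouse.

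Progress of a cell from G1 into S phase is opened by the D cyclins, which bind and activate the kinases Cdk4 and Cdk6. These kinases phosphorylate the retinoblastoma protein and its relatives, which releases E2F transcription factors that switch on the genes of DNA replication. The INK4 proteins bind Cdk4 and Cdk6 and keep D cyclins from them, while the Cip/Kip proteins bind complexes of cyclin and kinase and act most strongly on Cdk2. Signalling from the Flt3 receptor has been reported to raise D cyclins and to lower p27, the protein of Cdkn1b, in blood progenitors. A microRNA represses a messenger RNA mainly by pairing its seed, bases 2 to 8 from its 5′ end, with a site in the 3′ UTR.

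The deleted microRNA is shown first with its closest relative, because the seed is what selects target sites. The sequences below are from RefSeq (GRCm38.p6), written 5′ to 3′ with the seed in capitals. The strand encoding miR-196b-5p lies on chromosome 6 at chr6:52230129-52230150 (minus strand).
mmu-miR-196b-5p: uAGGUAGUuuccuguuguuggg
mmu-miR-196a-5p: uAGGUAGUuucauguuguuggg
Both have the seed AGGUAGU, and over their 22 bases they differ by 1 substitution, C12A, with the base of miR-196b first and positions counted from the 5′ end. The family member miR-196a comes from other loci, which the labels do not give as deleted. A DNA match to the whole seed is ACTACCT, and a second kind of site, CTACCTA, matches all but the last base of the seed and ends in an adenine. Where both occur at once the site is ACTACCTA, which overlaps each of the others.

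The annotated 3′ UTRs of the 10 genes were searched on the transcript's strand in GENCODE M21 (GRCm38). A match of any of these kinds was present in 2 of 10 genes, Cdkn1b and Ccnd2, against 11.1% of 20983 protein-coding genes with a 3′ UTR. The 2 sites are printed with the matching bases in capitals, since Cdkn1b is the reported target and Ccnd2 had the highest mean level of the 9 genes.
Cdkn1b: atttgctttgttgtACTACCTgtgt
Ccnd2: tgactaaagtagctgCTACCTAagg
In GENCODE M21 the Cdkn1b gene spans chr6:134920401-134925513 (plus strand) and Ccnd2 chr6:127125162-127152193 (minus strand). Of the other genes of the group with the highest levels, Ccnd1 lies at chr7:144929931-144939925 (minus), Cdkn1a at chr17:29090976-29100727 (plus) and Cdkn2c at chr4:109660876-109667189 (minus). The Cdkn1b match lies at chr6:134924475-134924481 (plus strand) and starts 2401 nt into the longest annotated 3′ UTR of 3439 nt. It was present in 3 of 3 coding transcripts with an annotated 3′ UTR. It matches all of bases 2 to 8, a class of match found in 6.55% of the genes. The Ccnd2 match lies at chr6:127129691-127129697 (minus strand), 638 nt into a 3′ UTR of 5173 nt. It was present in 1 of 3 coding transcripts with an annotated 3′ UTR. The longest 3′ UTR of both genes was above the median of all genes, which was 962 nt, and a longer UTR holds a 7-base word more often. Cdkn2b held only the 6-base core CTACCT. The letters of a match in the reference show neither binding nor repression.

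**Figure D1:**
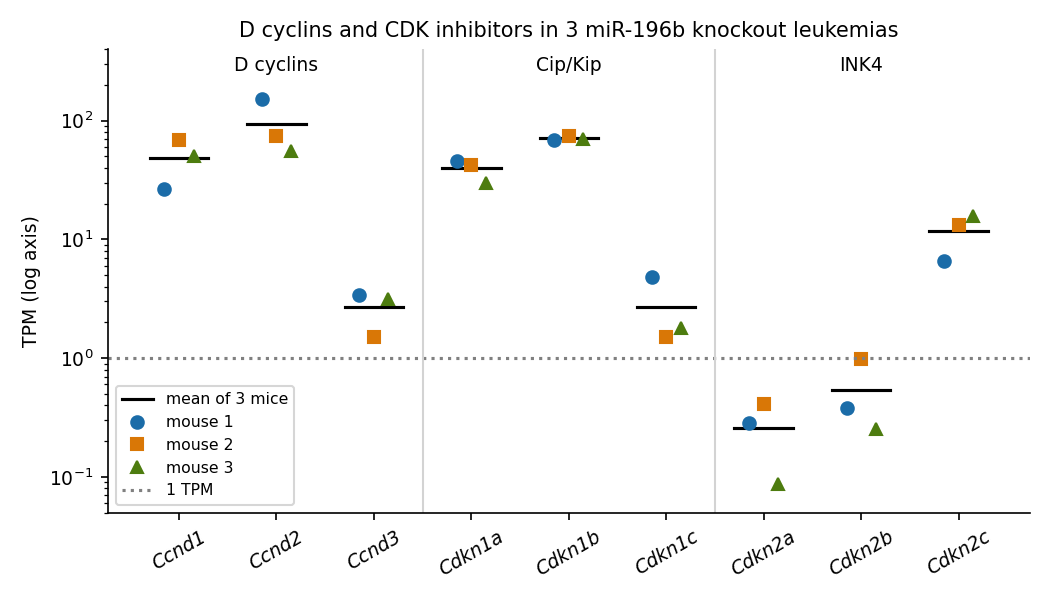
Deposited TPM of 9 genes (log axis) in 3 miR-196b knockout leukemias, by role. Symbols are mice 1, 2 and 3, the bar is their mean and the dotted line is 1 TPM. Cdkn1b lies between 68.4 and 74.4 TPM in all 3 mice, while Ccnd2 runs from 55.4 to 152.8 TPM.

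Values are in TPM, a transcript level per length scaled to a fixed total per library, so levels of different genes can be set side by side. A mean of at least 1 TPM, used here as detected, was reached by 7 of the 9 genes, against 54.1% of all symbols. The exceptions were Cdkn2a and Cdkn2b. By mean level the order was Ccnd2, Cdkn1b, Ccnd1, Cdkn1a, Cdkn2c, Cdkn1c, Ccnd3, Cdkn2b and Cdkn2a, shown in the plot of levels by gene. Ranges over the 3 mice did not overlap for 3 of the 8 neighbouring pairs: Cdkn1a lay above Cdkn2c, Cdkn2c above Cdkn1c, and Ccnd3 above Cdkn2b. The ranges of the other 5 pairs overlapped, although within each of the 3 mice Cdkn1b lay above Ccnd1 and Cdkn2b above Cdkn2a. Mice 2 and 3 had the same order of all 9 genes. In mouse 1, Ccnd2 ranked above Cdkn1b, Cdkn1a above Ccnd1, and Cdkn1c above Ccnd3.

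Myeloid and progenitor markers were present, as the label of the cells has it. Mpo, the myeloperoxidase of early granules, had 1081, 864 and 1632 TPM in mice 1, 2 and 3, and Kit, the receptor used for the enrichment, had 139, 149 and 133 TPM. Of 6 myeloid genes, 5 had values and all 5 were detected. Of 6 T and NK cell genes, 4 were detected, and the list summed to 160, 110 and 154 TPM, nearly all of it Nkg7, a granule gene of cytotoxic cells (153, 101 and 143 TPM). Cd3e, which encodes a CD3 chain of the T cell receptor complex, had at most 0.978 TPM. Of the other genes in the list, Cd8a had 3.98, 5.05 and 5.34 TPM. Cd3g, Ncr1 and Klrb1c had at most 1.02, 2.10 and 1.77 TPM. Late neutrophil genes differed most between mice, with 8 genes (among them S100a8 and Ltf) summing to 2472, 6468 and 21533 TPM, and 8 of 8 followed that order of mice. Progenitor genes (6, among them Cd34 and Gata2) summed to 782, 628 and 598 TPM, and dendritic cell genes (5, among them Clec9a and Xcr1) to 319, 697 and 464 TPM. No gene of these marker lists was at 0 in all mice. In bulk RNA, fewer cells of a type and less RNA per cell cannot be told apart. Each library was planned at 30000000 reads, per the labels, and TPM does not keep the depth reached, so no counting interval can be given. The spread between mice is the only error given.

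Among the D cyclins, Ccnd2, the form prominent in many blood progenitors, had 152.8, 74.0 and 55.4 TPM in mice 1, 2 and 3. Mouse 1 was high, and mice 2 and 3 lay near each other. The mean was 94.1 ± 51.7 TPM (SD, n = 3), above 89.5% of the genes with a mean of at least 1 TPM. On the log2(TPM + 1) scale the level was 6.44 ± 0.75.

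Ccnd1, whose protein is the D cyclin most often overproduced in solid tumours, had 26.4, 69.0 and 50.0 TPM. Mouse 1 was low here, where Ccnd2 was highest, while both genes were lower in mouse 3 than in mouse 2. The mean was 48.5 ± 21.3 TPM (SD, n = 3). The ratio of Ccnd2 to Ccnd1 was 5.79 in mouse 1, against 1.07 in mouse 2 and 1.11 in mouse 3. Both genes thus supplied nearly equal transcript levels in mice 2 and 3, whereas Ccnd2 was dominant in mouse 1.

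Ccnd3, the D cyclin known for its role in lymphoid and red cell precursors, was low, with 3.43, 1.51 and 3.12 TPM. Mouse 2 was lowest, and the highest mouse was mouse 1 in the values as deposited but mouse 3 after scaling the libraries to a common upper quartile. Its near copy, the processed pseudogene Ccnd3-ps, matched the gene's transcripts at 96.3% of 881 aligned bases and had 0.288, 0.608 and 0.0893 TPM, so the pair together stayed under 4 TPM in every mouse. Bysl, whose exons overlap those of Ccnd3 on the opposite strand, had 18.9, 14.97 and 14.3 TPM. Reads moving between these overlapping or similar genes were not tested, and the Ccnd3 level is uncertain for that reason. Exons of Ccnd1, Ccnd2, Cdkn1a and Cdkn1c also overlap those of other annotated genes on the opposite strand. Those other genes had no values under their symbols, and reads shared with them were not tested either.

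The D cyclins together summed to 182.6, 144.4 and 108.6 TPM, a mean of 145.2 ± 37.0 (SD, n = 3). Ccnd2 made up 83.7%, 51.2% and 51.1% of this pool and Ccnd1 14.5%, 47.7% and 46.1%. Ccnd3 supplied at most 2.87%. Mouse 1 therefore had both the largest pool and the one with the smallest share of Ccnd1.

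**Figure D2:**
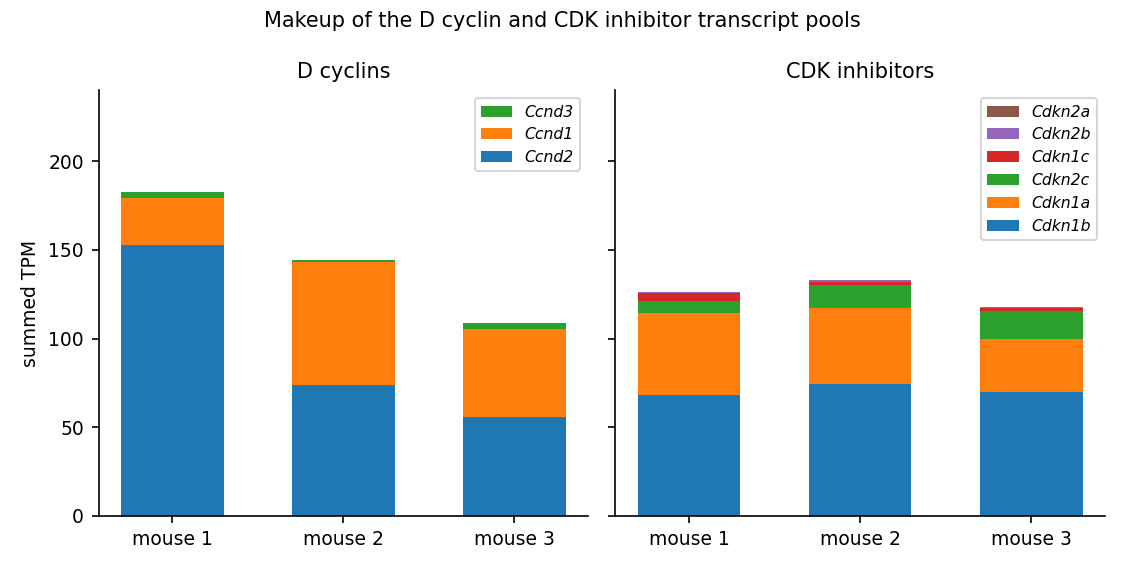
Stacked deposited TPM of the D cyclins (left) and CDK inhibitors (right, without Cdkn2d) in each of the 3 mice. Both panels share 1 linear axis that starts at 0. The cyclin pool runs from 108.6 to 182.6 TPM and is mostly Ccnd2 in mouse 1, while the inhibitor pool runs from 117.7 to 133.2 TPM with Cdkn1b as its largest part in each mouse.

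Of the Cip/Kip inhibitors, Cdkn1b, which encodes p27 and restrains Cdk2 in resting cells, had 68.4, 74.4 and 70.0 TPM in mice 1, 2 and 3. The 3 mice were close together, with a mean of 70.9 ± 3.11 TPM (SD, n = 3) and a highest value 1.09 times the lowest. On the log2(TPM + 1) scale the SD was 0.062, and 93.8% of genes with a mean of at least 1 TPM had a larger one. After scaling to a common upper quartile the values were 64.8, 75.1 and 73.2 TPM. On the TPM + 1 scale the fold between mice was then 1.16, against 1.09 as deposited. The rank of the SD among all genes was not recomputed after scaling. Much of the control of p27 is known to act on its translation and on the breakdown of the protein, which RNA levels do not show.

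Cdkn1a, which encodes p21 and is a well-known target of p53, had 46.1, 42.7 and 30.0 TPM. Mouse 3 was lowest, and the mean was 39.6 ± 8.45 TPM (SD, n = 3). In the same mice Trp53, the gene of p53, had 117, 100.1 and 114 TPM, and Mdm2, another p53 target, had 67.4, 88.9 and 73.1 TPM. The order of mice differed among these 3 genes. Cdkn1b exceeded Cdkn1a by 1.48, 1.74 and 2.33 times.

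Cdkn1c, an imprinted gene whose protein p57 is linked to quiescence of blood stem cells, had 4.79, 1.496 and 1.78 TPM. Mouse 1 was high and the other mice were close to each other. Mouse 1 was also the highest for Ccnd2, as the plot of profiles by mouse shows.

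Of the INK4 inhibitors, Cdkn2c, which encodes p18 and is known to restrain the renewal of blood stem cells, was the only 1 of the 3 measured genes that was detected. It had 6.62, 13.3 and 15.6 TPM, lowest in mouse 1, with a mean of 11.8 ± 4.67 TPM (SD, n = 3). Cdkn2a, which encodes both p16 and the p53 activator Arf, had 0.282, 0.408 and 0.0869 TPM. A value per gene does not separate its 2 products. Cdkn2b, the gene of p15 and a neighbour of Cdkn2a on chromosome 4, had 0.383, 0.975 and 0.253 TPM. Cdkn2a and Cdkn2b both stayed under 1 TPM in all 3 mice and had the same order of mice. Bmi1 and Ezh2, Polycomb genes known to repress this locus, had 58.5, 41.2 and 40.4 TPM and 138, 139 and 153 TPM.

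The summed inhibitors and their INK4 part leave out Cdkn2d, so the shares and the ratio below hold for the measured genes only. Cdkn1b made up 54.0%, 55.8% and 59.4% of the summed inhibitors, and Cdkn1a 36.4%, 32.0% and 25.5%. The sum itself was 126.5, 133.2 and 117.7 TPM, a mean of 125.8 ± 7.77 (SD, n = 3). The INK4 part was 7.29, 14.7 and 16.0 TPM, of which Cdkn2c was at least 90.6%. D cyclins stood to inhibitors at a ratio of 1.44, 1.08 and 0.922, a mean of 1.15 ± 0.267 (SD, n = 3). This compares transcripts only and says nothing of the proteins. The late neutrophil sum was lowest in mouse 1, where the ratio was highest, and highest in mouse 3, where the ratio was lowest, and its part in the ratio was not tested.

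**Figure D3:**
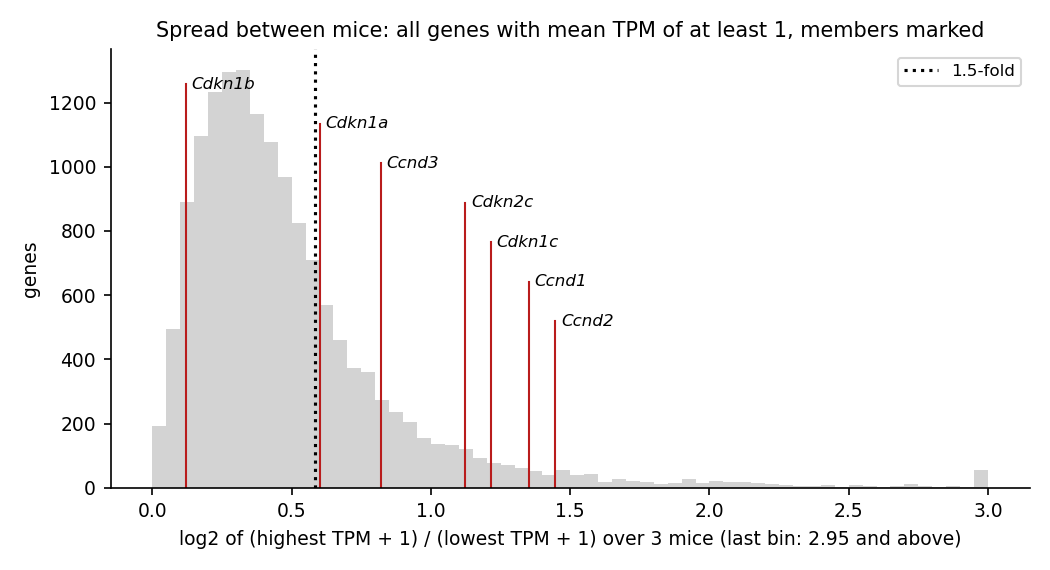
Histogram of the spread between 3 mice for 15181 genes with a mean of at least 1 TPM, as log2 of the highest over the lowest value (TPM + 1), with the 7 detected genes of the group as red lines. Cdkn1b lies left of the dotted line at 1.5-fold, and the other 6 lie to its right.

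Cdkn1b had the smallest spread between mice of the 7 detected genes. The highest mouse reached at least 1.5 times the lowest, on the TPM + 1 scale, for 6 of the 7 detected genes (all but Cdkn1b), against 27.2% of all 15181 genes with a mean of at least 1 TPM. At 2-fold the count was 4 of 7 (Ccnd1, Ccnd2, Cdkn1c and Cdkn2c), against 8.57%. Including the 2 undetected genes, Cdkn2b also passed 1.5-fold, which made 7 of 9. The median SD of the 7 detected genes was 0.60 log2 units, against 0.21 over all genes. These counts rested largely on mouse 1: without it only Ccnd3 of the 7 detected genes passed 1.5-fold, against 11.3% of all genes. Without mouse 2 or without mouse 3 the count was 5 in each case, against 16.4% and 16.5%. After upper-quartile scaling Cdkn1a no longer passed, with a fold of 1.38. Mice of 1 group give no contrast to test, so these are descriptions.

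The rest of the pathway was read from a list of 41 genes by role. Of these, all 41 were detected, against 54.1% of all symbols. Of the 41, 8 passed 1.5-fold and none passed 2-fold, against 27.2% and 8.57% of all genes with a mean of at least 1 TPM. Their median SD was 0.22, against 0.21 over all those genes. Scaling the libraries to a common upper quartile shifted the values of mouse 1 by -0.08 log2 units and those of mouse 3 by 0.06, and it changed which mouse was highest for many of these small differences. Of the 41 genes, 19 were highest in mouse 1 as deposited and 10 after scaling, which is 46.3% and 24.4%, against 48.6% and 35.6% of all genes with a mean of at least 1 TPM. Highest in mouse 3 were 19 and 25 of them, which is 46.3% and 61.0%, against 20.3% and 30.4% of all genes. Lowest in mouse 2 were 31 and 27, which is 75.6% and 65.9%, against 33.0% and 33.5%.

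The kinases were abundant. Cdk4, a partner of D cyclins, had 424, 282 and 369 TPM, and Cdk6, its close relative, had 233, 132.5 and 143 TPM. Together they stood at 3.60, 2.87 and 4.72 times the D cyclin pool. Cdk6 was highest in mouse 1, as was Ccnd2. Cdk2, the partner of later cyclins and a main target of p27, was the lowest of the 4 kinases, at 53.4, 43.2 and 47.0 TPM, so that Cdkn1b stood at 1.28, 1.72 and 1.49 times its level. All 4 kinases, Cdk1 included, were lowest in mouse 2 with either scaling, as were 33.0% of all genes as deposited and 33.5% after scaling. Cdk6, Cdk4 and Cdk1 passed 1.5-fold as deposited, with folds of 1.75, 1.504 and 1.502, and after scaling Cdk4 no longer did, at 1.41. Of all genes, 27.2% passed as deposited and 25.9% after scaling.

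The later cyclins did not share the mouse order of the D cyclin pool. The genes Ccne1, Ccne2, Ccna2 and Ccnb1 act from entry into S phase to mitosis. Of these, 4 of 4 had their highest value in mouse 3 with either scaling, where the D cyclin pool was lowest. Of all genes, 20.3% were highest in mouse 3 as deposited and 30.4% after scaling. With either scaling so were 6 of 6 erythroid, 8 of 8 late neutrophil, 5 of 6 B cell and 4 of 6 monocyte and macrophage markers. The counts were 3 of 5 for myeloid, 2 of 5 for megakaryocyte, 1 of 5 for dendritic cell and 0 of 6 for progenitor markers. For T and NK cell markers they were 4 of 6 as deposited and 5 of 6 after scaling. The part of these cells was not tested. Ccna2 had the highest mean of the 4, 103.3 ± 12.4 TPM, and Ccne1 the lowest, 25.5 ± 5.21 TPM (SD, n = 3). Of 7 proliferation genes, 5 were highest in mouse 3 as deposited and 6 after scaling, to be read against the same shares of all genes. Pcna, the sliding clamp of DNA replication, was the most abundant of them, with 458, 441 and 516 TPM, and Mcm2, a subunit of the replicative helicase, the least, with 98.1, 73.9 and 99.9 TPM.

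The pocket proteins are the substrates of Cdk4 and Cdk6. Rbl1 had 61.6, 61.1 and 65.7 TPM, Rb1, the retinoblastoma gene, 39.9, 42.1 and 43.1 TPM, and Rbl2 45.9, 34.9 and 38.2 TPM. Rb1 and Rbl1 had folds of 1.08 and 1.07 between mice and Rbl2 one of 1.31, near the median of all genes, 1.32. Among the E2F factors and their partners, Tfdp1 had the highest mean, 152.8 ± 24.9 TPM, and E2f5 the lowest, 14.8 ± 3.15 TPM (SD, n = 3). Of these 10 genes, 2 passed 1.5-fold, E2f7 and Tfdp2, and after scaling E2f8 did too, at 1.503. The shares of all genes were 27.2% and 25.9%.

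Genes listed for the turnover of p27 or for the activation of kinases were examined beside Cdkn1b. Skp2, which marks p27 for breakdown, had 11.6, 8.41 and 11.1 TPM, the lowest mean of its group. Its cofactor Cks1b had 115.8, 87.2 and 122 TPM, and the ligase subunit Skp1a the highest mean, 211 ± 37.0 TPM (SD, n = 3). None of the 6 genes of this group passed 1.5-fold, against 27.2% of all genes. Of the 7 transcriptional regulators, Myc, which is known to raise Ccnd2 and to lower Cdkn1a, had the highest mean, with 258, 167 and 160.4 TPM, and was the only 1 to pass 1.5-fold, at 1.60, but not after scaling, at 1.45. Foxo1, a forkhead factor known to raise Cdkn1b, had the lowest mean, with 6.42, 7.89 and 5.82 TPM. Its relative Foxo3, of the same list, had 41.2, 37.0 and 43.5 TPM.

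**Figure D4:**
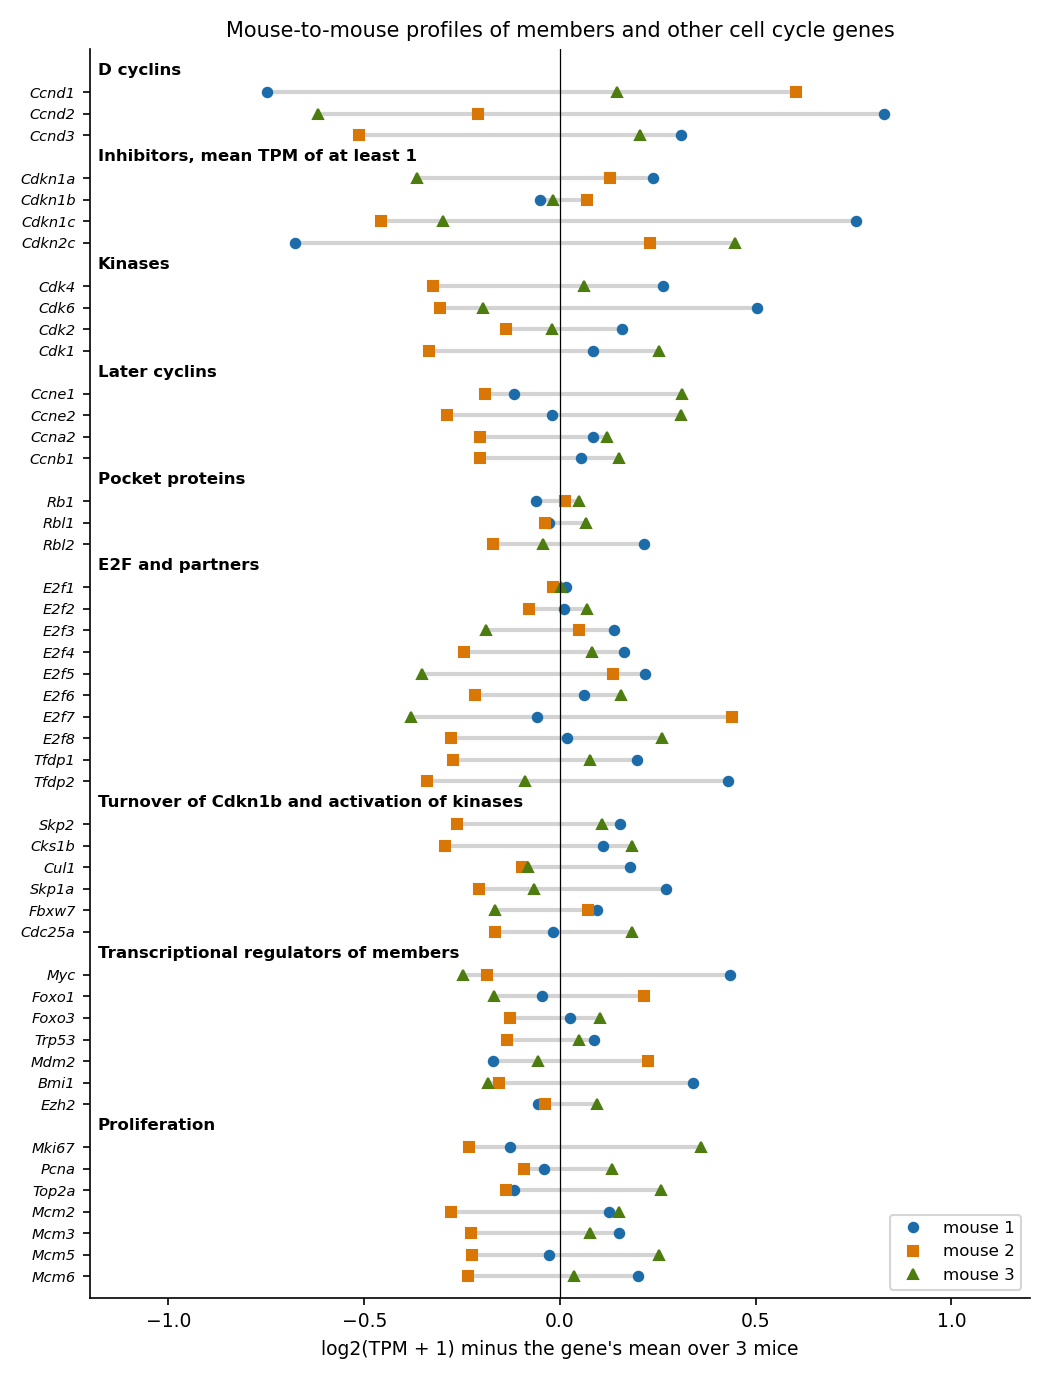
Level of each gene in mice 1, 2 and 3 as log2(TPM + 1) minus the gene's mean over the 3 mice, for 7 detected genes of the group and 41 other cell cycle genes by role. Ccnd1 and Cdkn2c lie low and Ccnd2 and Cdkn1c high in mouse 1, while the 3 points of Cdkn1b lie close to 0.

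Likeness of pattern was measured as the largest difference between the centred log2(TPM + 1) values of a pair of genes in any of the 3 mice. Within the group and the 41 other genes, Rb1 was closest to Cdkn1b at 0.07 log2 units and E2f1 next at 0.09. These 3 genes share a small spread. Of 15180 other genes, 776 lay as close to Cdkn1b as Rb1 did and 1260 as close as E2f1 did. Ccnd2 was closest to Cdkn1c (0.32) and Myc (0.39), with 300 genes of the table as close as Cdkn1c. Cdkn1c in turn was closest to Cdk6 (0.25), with 260 as close, and then Ccnd2.

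Within the same genes Ccnd1 and Cdkn2c were closest to each other, at 0.37. Of 15180 other genes, 474 lay as close to Ccnd1 and 645 as close to Cdkn2c. Mdm2 came next for both (0.58 and 0.51), with 1815 and 1734 genes as close. Cdkn1a was closest to E2f5, at 0.02, with 16 genes as close, and then to E2f3 (0.18), with 1269 as close. Ccnd3 was closest to Cdk4 (0.19), with 251 genes as close, and to Cks1b (0.22). With 3 mice such likeness describes these libraries only.

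Several marker lists of other cells shared an order of mice or a highest mouse with some of these genes. Late neutrophil genes were lowest in mouse 1 and highest in mouse 3, an order shared by Cdkn2c and reversed by Ccnd2 and Cdkn1a. The progenitor sum was highest in mouse 1, where Ccnd2 and Cdkn1c were highest. Of its 6 genes, 4 were highest there, while Kit and Flt3 were highest in mouse 2. Of all genes with a mean of at least 1 TPM, 48.6% were highest in mouse 1 as deposited, 31.1% in mouse 2 and 20.3% in mouse 3. Dendritic cell genes were highest in mouse 2 for 4 of 5, against that 31.1%. Ccnd1 and Cdkn1b were highest there too, although Cdkn1b differed little between mice. Monocyte and macrophage genes (6) summed to 243, 438 and 379 TPM, the order of mice of Ccnd1. Of these, 4 of 6 were highest in mouse 3, against 20.3% of all genes. Erythroid genes (6) summed to 48.3, 33.1 and 88.2 TPM, lowest in mouse 2 and highest in mouse 3, the order of the later cyclins as deposited. B cell genes (6) summed to 47.4, 89.7 and 124.1 TPM, the order of Cdkn2c. Most of that sum was Ighm, with 32.2, 76.8 and 107.7 TPM, while Cd79b was highest in mouse 1. Megakaryocyte genes (5) summed to 103.2, 85.9 and 109.3 TPM. The part of these cells in the levels was not tested.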

How the data were processed

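The authors deposited 1 table of TPM values per gene symbol. The file is named as log2 FPKM. Its values are linear, however, and the 3 columns summed to 929731, 927169 and 928490. The submitters' processing notes name kallisto and mm10. The annotation and the summing to genes are not given in the sources used here. The table held 28987 rows. Rows without a symbol (795, at most 0.608% of a column) or with a date as symbol (27) were left out, and 90 symbols on several rows were summed. A further 3 per-sample columns match no sample of this series and were not used.

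From these values log2(TPM + 1), the mean and SD over 3 mice, and the ratio of highest to lowest mouse were computed, with no test, since the labels give 1 group. The labels name both ribosomal depletion and a stranded mRNA kit. Loci and 3′ UTRs come from GENCODE M21, microRNAs from RefSeq.

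Named genes are the 10 listed, the highest and lowest mean of each role in the list of 41, and the 2 closest patterns per gene. Others (Rb1, Rbl1, Rbl2, Cdk6, Cdk2, Cdk1, Ccne2, Ccnb1, E2f7, E2f8, Tfdp2, Cks1b, Foxo3, Trp53, Mdm2, Bmi1, Ezh2, Bysl and Ccnd3-ps) were named after their values were seen. Genes, lists and rules were chosen with earlier results of these data known. Python 3.11.15, numpy 2.4.6, pandas 2.3.3, matplotlib 3.10.9 and blastn 2.17.0 were used.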

Additional observations from a re-analysis of the deposited data

How the results depend on the processing

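No paired analysis was possible because the labels give a single group. Alternatives covered a pseudocount of 0.1, upper-quartile scaling, detection minimums of 0.1 and 5 TPM, a 2-fold rule, the highest row of a symbol, other seed matches, and each mouse left out in turn. Of 54 recomputed gene levels, 52 stayed within the spread between mice. The other 2, Cdkn2a and Cdkn2b, moved with the pseudocount of 0.1, which weighs values under 1 TPM more. The number of the 9 genes past 1.5-fold was 7, against 27.2% of all genes with a mean of at least 1 TPM. At 2-fold it was 4, against 8.57%. Without mouse 1 it was 2, against 11.3%. Without mouse 2 or without mouse 3 it was 5 in each case, against 16.4% and 16.5%. The count thus fell most without mouse 1, as did the share of all genes. The number of the 10 genes with a seed match was 2, against 11.1% of all genes with a 3′ UTR. It was 0 when only ACTACCTA was counted, against 1.34%. With the 6-base core counted as well it was 3, against 27.6%. Upper-quartile scaling was also applied, after seeing the data, to the count of other cell cycle genes past 1.5-fold. That count was 8 of 41 as deposited and 7 after scaling, against 27.2% and 25.9% of all genes. Of the other planned results, 35 of the 38 recomputed counts, sums, ratios and shares kept within 1.5 times or within their spread. Leaving out a mouse cannot move a mean of 3 by as much as its SD. For levels, sums, the ratio and the Cdkn1b share that alternative says nothing about stability. None of the 9 genes had its symbol on several rows, so the highest row left every level unchanged by construction. Scaling whole libraries likewise fixes the ratio of D cyclins to inhibitors (1.15) and the Cdkn1b share (56.4%). The scaling shifts of -0.08, 0.01 and 0.06 log2 units for mice 1, 2 and 3 nearly cancel in a mean level. Of the alternatives for levels, only the pseudocount of 0.1 was thus free to move them much. The depth is unknown, so counting error in Cdkn2a and Cdkn2b cannot be stated.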

Other observations

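E2f7 and E2f8, E2F family members that act mainly as repressors, had opposite patterns. E2f7 had 77.3, 109.5 and 61.6 TPM in mice 1, 2 and 3, highest in mouse 2, while E2f8 had 42.9, 34.8 and 51.0 TPM, lowest in mouse 2, and both orders held after upper-quartile scaling. E2f1, an activating member, was the most even of the 41 genes, at 22.5, 22.0 and 22.4 TPM. These genes were picked after their values were seen.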
